A study of Homo sapiens with 6 samples.

Results

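VMP1 and microRNA-21 (MIR21) share one stretch of the long arm of human chromosome 17. The locus was taken as the VMP1 gene, which contains the MIR21 hairpin, plus 50 kb on each side (chr17:59657192-59892255, hg38). It was selected on the peak lists described here, because several of its regions were among the strongest of the series, so its strength is a description and was not tested. It held 17 of the 19108 regions found with full-length ZNF469 and 0 of the 54 found with ZNF469 that lacks most of its zinc fingers (dZF).

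VMP1 encodes a multispanning membrane protein of the endoplasmic reticulum, a lipid scramblase that is needed for autophagosome formation. MIR21 is a microRNA gene inside the last exon of VMP1. Its precursor can be made from VMP1 transcripts or from a promoter of its own, which lies within the VMP1 gene shortly before the hairpin and which responds to AP-1 and STAT3 in other cells. The mature microRNA represses genes such as SMAD7 and PDCD4, and is well known for rising in activated fibroblasts and stellate cells.

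The regions came from CUT&RUN on LX-2 cells with an anti-ZNF469 antibody. CUT&RUN cuts and releases the DNA next to an antibody-bound protein. LX-2 is an immortalised human hepatic stellate cell line. All cells carried an HA-tagged ZNF469 transgene in a doxycycline-inducible piggyBac vector and received 1 ug/mL doxycycline for 24 h. The full-length group (clone3.4) and the dZF group (clone3.1) had 3 libraries each. A group is thus a single transgenic line with its own insertions and transgene level, so the deleted zinc fingers and the line cannot be told apart. Whether the antibody recovers both proteins equally was not tested. Libraries without doxycycline or with a control antibody were not analysed here.

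Each group came as 1 list combined over its 3 libraries, so values had no spread between replicates and no difference between groups was tested. The strength of a region is given as its pileup, the whole number of fragments or extended reads over the summit (the strongest base), and as the local background that the peak caller expected there. Pileups are given with 95% limits from the exact Poisson distribution. These reflect counting error alone. The full-length list had a median pileup of 20 and a median background of 1.82, and the dZF list had a median pileup of 24 and a median background of 0.792. The total depth of the libraries was not given. The deposited score rises with the estimated reproducibility of a region up to a ceiling of 1000. In the locus, 7 of 17 regions were at that ceiling, beside 33.0% of the full-length list, and the lowest score was 569 against 540 in the list.

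The mature microRNA of the locus is shown first, with its seed, bases 2 to 8, in capitals. The seed is the stretch that pairs with target transcripts. Of 2370 mature human microRNAs in the RefSeq table (GRCh38.p14), miR-21-5p shared that seed with miR-590-5p from chromosome 7.
miR-21-5p: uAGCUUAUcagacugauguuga
miR-590-5p: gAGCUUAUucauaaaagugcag

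The locus held 4 regions with a pileup of at least 100, and the 200 bases around each summit are shown because they carry the strongest signal. They are read from the plus strand of hg38, and capitals mark the AP-1 site, the letters TGAGTCA or their reverse complement TGACTCA. AP-1 is the dimer of FOS and JUN proteins. The windows follow the direction of VMP1, as chr17:59754570-59754769 in intron 5, chr17:59829336-59829535 in intron 10, chr17:59837701-59837900 before the MIR21 hairpin and chr17:59843310-59843509 beyond the end of VMP1.
VMP1 intron 5: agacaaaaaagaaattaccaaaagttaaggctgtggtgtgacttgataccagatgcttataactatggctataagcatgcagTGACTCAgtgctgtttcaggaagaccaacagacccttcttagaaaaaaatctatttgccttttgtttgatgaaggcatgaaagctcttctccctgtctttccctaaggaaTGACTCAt
VMP1 intron 10: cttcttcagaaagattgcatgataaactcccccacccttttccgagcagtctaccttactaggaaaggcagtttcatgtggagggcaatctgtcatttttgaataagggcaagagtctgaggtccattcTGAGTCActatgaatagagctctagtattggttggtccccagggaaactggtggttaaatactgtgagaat
microRNA-21 promoter: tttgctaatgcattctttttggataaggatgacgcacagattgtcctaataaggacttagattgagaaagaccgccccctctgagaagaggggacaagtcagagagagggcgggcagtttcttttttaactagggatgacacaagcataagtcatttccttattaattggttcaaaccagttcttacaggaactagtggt
beyond the end of VMP1: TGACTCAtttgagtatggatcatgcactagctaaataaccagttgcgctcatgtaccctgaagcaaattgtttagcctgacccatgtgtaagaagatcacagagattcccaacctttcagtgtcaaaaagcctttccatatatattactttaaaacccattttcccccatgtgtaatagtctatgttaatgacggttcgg
The first window held 2 AP-1 sites, the intron 10 window and the window beyond VMP1 held 1 each, and the window before MIR21 held 0.

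The 17 regions lay between 38.7 kb before and 148 kb after the start of VMP1-201, the canonical transcript (chr17:59707654, plus strand, 12 exons). Of these, 13 overlapped VMP1, and 12 of the 13 had their summit in an intron. The summits were unevenly spaced, with gaps from 1.09 to 46.0 kb and 6 of 16 neighbouring pairs under 5 kb apart. Joining summits under 10 kb apart gave 7 groups, of which 1 held 6 regions, 1 held 4, 2 held 2 and 3 held a single region.

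**Figure D1:**
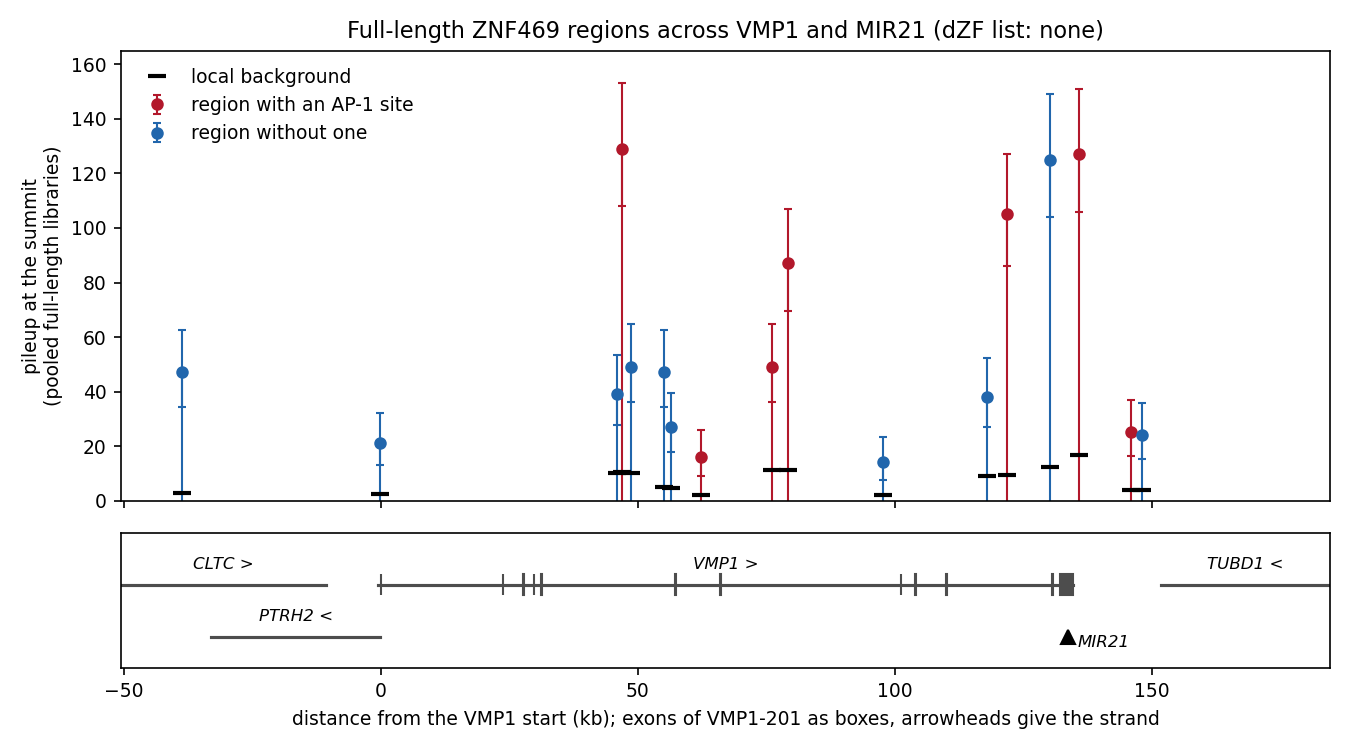
Pileup at the summit (y axis, pooled full-length libraries, bars give Poisson 95% limits) of the 17 full-length regions by distance from the VMP1 start (x axis, kb), with the local background as a black dash and genes below. Regions with an AP-1 site are red and those without are blue. The tall regions stand at 47.0, 79.1, 122, 130 and 136 kb, and the VMP1 start has a pileup of 21.

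The strongest region of the locus was in intron 5, and the start of VMP1 was among the weaker ones. The intron 5 region at 47.0 kb (chr17:59754156-59755004) had a pileup of 129 (95% limits 108 to 153) over a background of 10.4, a fold of 11.4, and ranked 7 by pileup in the full-length list. The region over the start of VMP1 (chr17:59707256-59707952) had a pileup of 21 (13.0 to 32.1) over a background of 2.42, and ranked 8533. That region covers 95 bases of exon 1 and also the start of PTRH2, which encodes a mitochondrial peptidyl-tRNA hydrolase on the other strand, so it cannot be assigned to 1 of the genes. The Poisson limits of the intron 5 region and the start region did not overlap. The intron 5 region was picked as the highest of the locus, so nothing is read from that contrast.

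Intron 5 held 5 regions, all within 45.9 to 56.5 kb. On either side of the strongest one, the region at 45.9 kb had a pileup of 39 (27.7 to 53.3) and the region at 48.8 kb a pileup of 49 (36.3 to 64.8). These 3 neighbours had nearly the same local background, from 10.3 to 10.4, while their folds were 3.53, 11.4 and 4.42. Their summits were 1.09 and 1.77 kb apart, so a background averaged over 10 kb would be largely shared. The folds then restate the pileups. The remaining regions of intron 5, at 55.1 and 56.5 kb, had pileups of 47 and 27 over backgrounds of 5.01 and 4.76. A weak region in intron 6, at 62.4 kb, had a pileup of 16 (9.15 to 26.0) over a background of 2.17 and was centred on an AP-1 site 2 bp from its summit.

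Intron 7 held 3 regions. The region at 79.1 kb (chr17:59786215-59787347) was, at 1133 bp, the widest of the locus, with a pileup of 87 (69.7 to 107) over a background of 11.1. Its neighbour at 76.0 kb had a pileup of 49 (36.3 to 64.8) over nearly the same background of 11.3. With their summits 3.11 kb apart, a background averaged over 10 kb would be largely shared here too. The third region of the intron, at 97.7 kb, was the weakest of the locus, with a pileup of 14 (7.65 to 23.5) over a background of 1.88. Background and pileup were both high in the first pair and both low 18.6 kb further on.

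Intron 10 held 3 summits, and the last belongs to the region that precedes MIR21. At 118 kb the pileup was 38 (26.9 to 52.2) over a background of 8.92. At 122 kb (chr17:59829128-59830015) the pileup was 105 (85.9 to 127) over 9.47, rank 20 in the list.

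The microRNA-21 promoter carried one of the strongest regions of the whole list. The region at chr17:59837477-59838336 had a pileup of 125 (104 to 149) over a background of 12.4, a fold of 9.38 and rank 10 by pileup. Its summit lay 3.46 kb before the hairpin (chr17:59841266-59841337, plus strand, in exon 12 of VMP1-201) and its end 2.93 kb before it. GENCODE 44 has 5 VMP1 transcripts that start in the 5 kb before the hairpin, and 4 of those starts were inside the region. They were VMP1-213, which starts 173 bp before the summit, and VMP1-208, VMP1-217 and VMP1-205, which start 54, 130 and 150 bp after it. VMP1-217 and VMP1-205 each have an exon that runs through the hairpin. The region also covered 42 bases of exon 11 of VMP1-201. The hairpin itself overlapped 0 regions.

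A region of the same height lay on the far side of the hairpin. It began 643 bp beyond the end of VMP1 and 1.56 kb beyond the hairpin (chr17:59842898-59843831), with a pileup of 127 (106 to 151). It had the highest local background of the locus, 16.8, and with it a fold of 7.20, under the list's median fold of 7.36. The limits of the 4 strongest pileups of the locus, 105 to 129, all overlapped, so their order is within counting error.

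The other 3 regions outside VMP1 were weaker. Between VMP1 and TUBD1, which encodes delta-tubulin, regions at 146 and 148 kb had pileups of 25 (16.2 to 36.9) and 24 (15.4 to 35.7). A region in CLTC, the clathrin heavy chain gene, overlapped 1 exon and had its summit in intron 14. It lay 38.7 kb before VMP1, with a pileup of 47 (34.5 to 62.5) over a background of only 2.87. Its fold of 12.4 was the highest of the locus. Just outside the window, 431 bp past its edge, a region over the shared start of TUBD1 and RPS6KB1 had a pileup of 45, and on the other side the start of CLTC, 37.4 kb outside, had a pileup of 32.

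By pileup, 4 of the 17 regions (23.5%) reached 100, which 22 of the 19108 regions of the list did (0.115%). The locus was selected for such regions, so nothing is read from that contrast. By fold the same regions ranked lower. The median fold of the locus was 5.42 against 7.36 in the list, 5 of 17 regions exceeded the list median, and 0 were among the 100 highest folds while 5 were among the 100 highest pileups. Ranked by fold the 4 strongest regions stood at 786, 1931, 3161 and 10286.

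Local backgrounds were high in the locus. Their median was 8.92 in the locus, 2.15 over the 904 regions of chromosome 17 and 1.82 over the list, and all 17 regions were above the list median. Around the locus they were lower. Within 1 Mb before the window 13 regions had a median background of 2.18 (highest 5.82), and within 1 Mb after it 10 regions had a median of 2.44 (highest 4.36). Inside the locus the background was 2.42 at the VMP1 start and 1.88 at 97.7 kb, between neighbours at 11.1 and 8.92. Whether a control library entered these backgrounds is not given in the sources used here. All backgrounds of the full-length list below 3 and above its lowest value were whole multiples of 0.0103 to within 0.00785 of a step, which is 103 bp over a window of 10 kb. The part of DNA copy number or open chromatin in the high pileups was not tested.

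**Figure D2:**
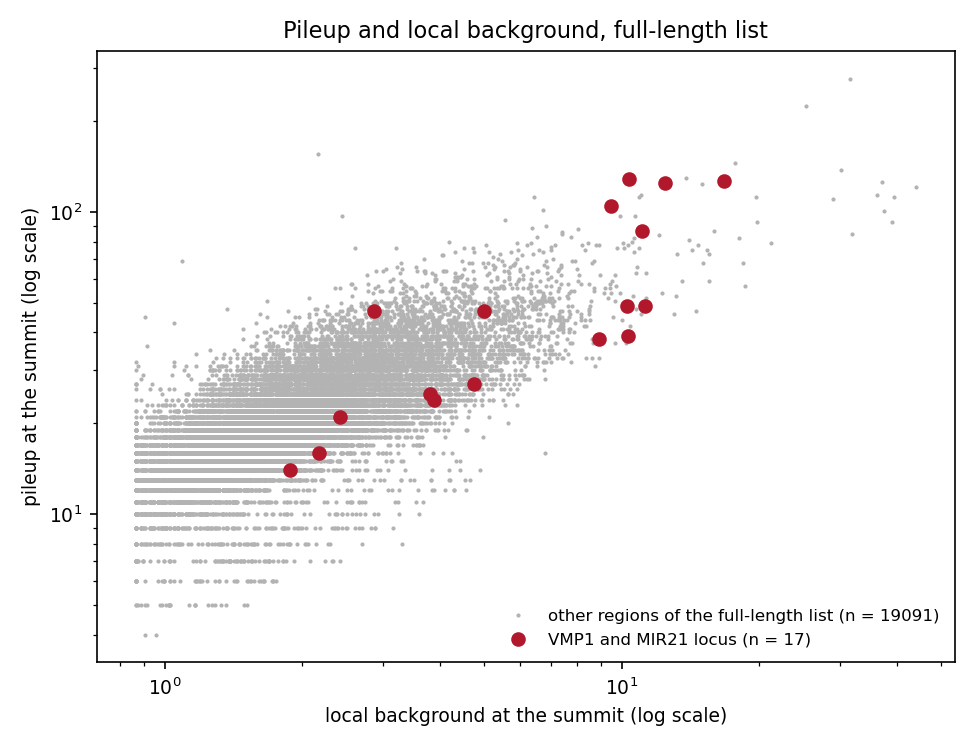
Pileup against local background at the summit (both axes logarithmic) for the full-length list, with the 17 regions of the locus in red and the other 19091 in grey. The locus spans backgrounds from 1.88 to 16.8, and 5 of its regions have a pileup of 87 or more at backgrounds above 9.

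VMP1 was dense in regions for its length. Its 13 regions covered 5.83% of its 135 kb. Of 20033 protein-coding genes 30 had as many or more, VMP1 included, and 33.6% had at least 1. Among the 2165 genes of 100 to 200 kb the median was 1 region, and 3 genes had 13 or more. These were VMP1, COL5A2 (16), a fibrillar collagen chain, and LOXL2 (13), a collagen cross-linking oxidase, both named after their values were seen. In that length class the median coverage was 0.176%, and VMP1 had the highest. With 3 regions of at least 100 inside the gene, VMP1 was second to COL1A1, also on chromosome 17, which had 6 (named after its values were seen). These were the only genes of the 20033 with 3 or more. VMP1 lies in a locus selected for its strong regions, so nothing is read from these ranks.

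Other loci with many full-length regions were also taken with 50 kb on each side. The signalling gene TRIO had 23 regions in 489 kb, with a median pileup of 60 and a highest of 146. The DNA repair gene RAD51B had 33 regions in 1010 kb, with a median of 33 and a highest of 72, and RUNX1, a transcription factor gene, had 21 in 1320 kb, with a median of 18 and a highest of 56. The VMP1 and MIR21 locus had a median of 47 and 7.23 regions per 100 kb, against 4.71, 3.27 and 1.59 for TRIO, RAD51B and RUNX1. Its pileups ran from 14 to 129 and overlapped those of each other locus. Local background at TRIO was also high, with a median of 10.2, while the medians at RAD51B and RUNX1 were 3.63 and 1.95. These loci were compared without a test, since all were known to be rich in regions.

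**Figure D3:**
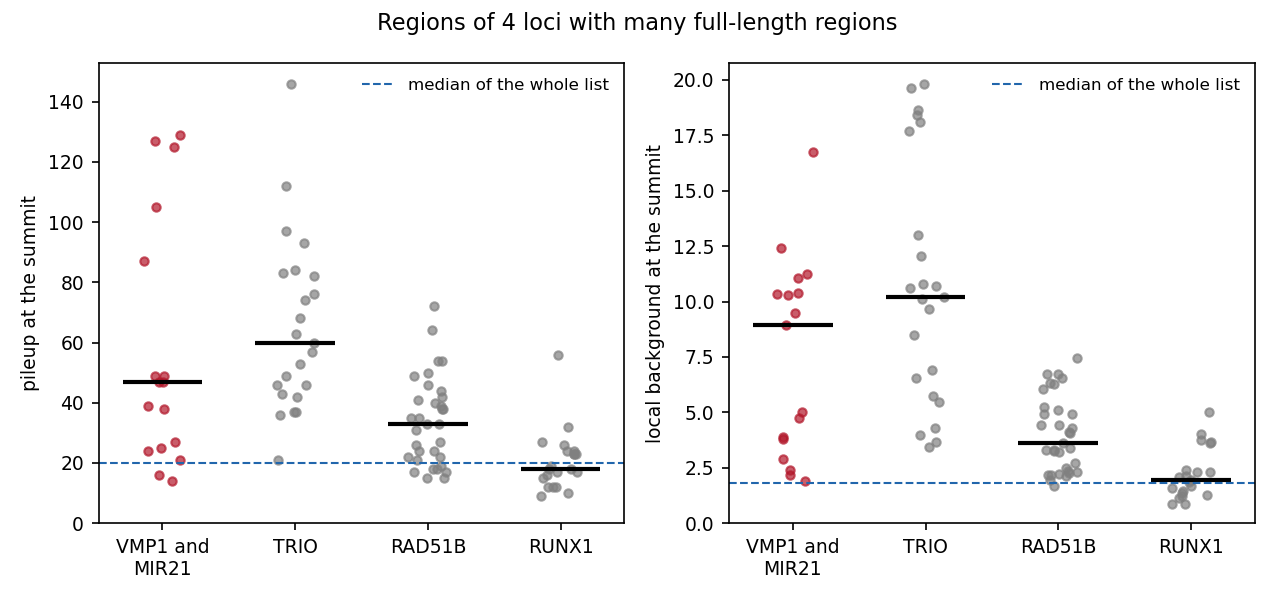
Pileup (left) and local background (right) at the summits of the regions of 4 loci, each with 50 kb flanks. Points are regions, black bars are medians and the dashed line is the median of the whole list. The medians of pileup are 47, 60, 33 and 18 from left to right.

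AP-1 sites were found in the locus about as often as elsewhere in the list. The letters TGAGTCA on either strand occurred in 7 of 17 regions (41.2%, exact 95% limits 18.4 to 67.1) and in 44.1% of the list. In the 200 bases around the summit the shares were 29.4% and 32.2%, whereas 3.3% of windows of that length 2 kb to either side of the list's summits held a site. The 7 regions held 10 sites in all, 3 regions holding 2 each. Strong regions both had and lacked them, since 4 of the 5 highest pileups had a site and the microRNA-21 promoter did not.

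Sites close to a summit are shown with 10 bases on each side, read in the direction that gives TGAGTCA, in capitals.
47.0 kb, 15 bp before the summit: gaaacagcacTGAGTCActgcatgctt
62.4 kb, 2 bp after the summit: atgggaatcaTGAGTCAgtactctctt
76.0 kb, 20 bp before the summit: ggtcaaaatcTGAGTCAtctgactccc
122 kb, 32 bp after the summit: aggtccattcTGAGTCActatgaatag
The 62.4 kb region with this central site had a pileup of 16, and the 47.0 kb region one of 129, so a central site went with both weak and strong regions. The flanking letters were not compared with a test.

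**Figure D4:**
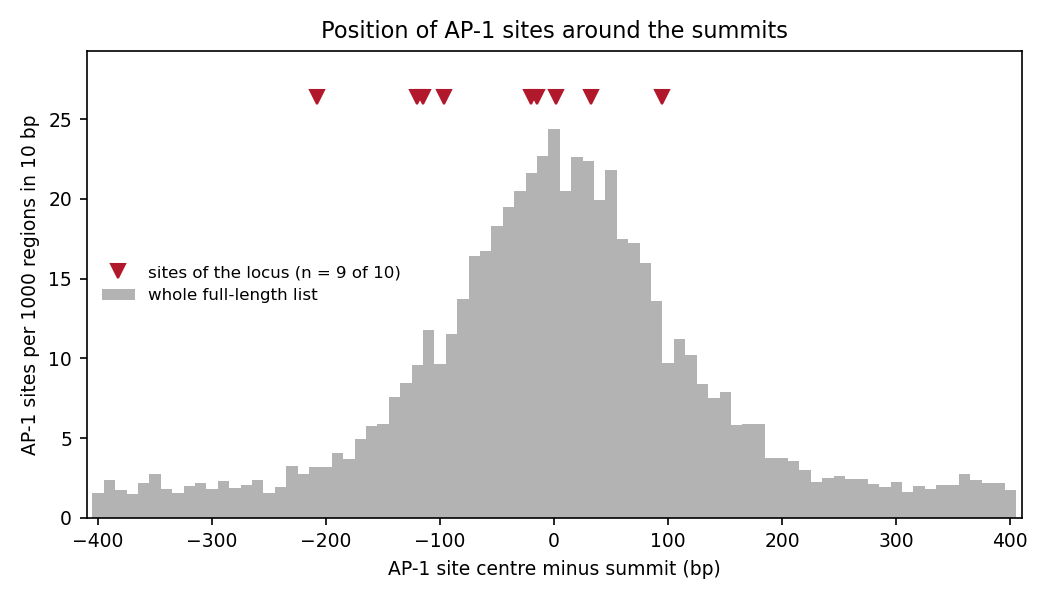
AP-1 sites per 1000 regions in bins of 10 bp (y axis) by distance of the site from the summit (x axis, bp) for the whole full-length list in grey, with 9 of the 10 sites of the locus as red marks. The list's sites gather at the summit, and the marks lie between 208 bp before and 95 bp after it; the tenth site, 538 bp before a summit, is outside the plot.

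The microRNA-21 promoter window held 0 matches to TGAGTCA and 3 heptamers that differ from it by 1 base, counted from 1 at the 5′ end of TGAGTCA. They were TGCGTCA (A3C) 68 bp before the summit, TGTGTCA (A3T) 39 bp after it and TAAGTCA (G2A) 50 bp after it. Of the list's windows of 200 bases 72.6% held at least 1 heptamer with up to 1 mismatch, so this is not particular to the promoter. No match to TGAGTCA says only that these letters are not in the window. The STAT motif TTCNNNGAA, which is its own reverse complement, occurred once in the promoter region and in 5 of 17 regions of the locus (29.4%), beside 16.0% of the list. The RUNX motif TGTGGT and the TEAD motif GGAATG, on either strand, each occurred in 6 of 17 regions (35.3%), beside 31.7% and 35.6% of the list. Of the 9 TEAD matches in the locus 1 shared bases with an AP-1 site, and of the RUNX and STAT matches 0 did. Most regions were AT-rich, with a median GC content of 37.7% against 44.6% in the list. The VMP1 start was highest at 56.4%, and the regions at 136 and 146 kb, at 45.7% and 46.0%, also exceeded the list median.

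Most microRNA hairpins had no full-length region in the 5 kb upstream. The region before MIR21 was the highest of those found, but its locus was selected for high pileups, so nothing is read from that rank. Of 1879 annotated hairpins, 177 (9.42%) had a full-length region in the 5 kb upstream. In the other 176 the highest pileup there had a median of 22 and a maximum of 83, against 125 for MIR21. In a list of 30 fibrosis-related microRNAs, 8 (26.7%) had such a region and 22 had none. The 8 include MIR21, whose locus was selected for its strength. MIR22 had 3, the highest with a pileup of 43. MIR30A, the gene of miR-30a, had a region with a pileup of 59, and MIR155, known from inflammation, one with 35. MIR23A, MIR27A and MIR24-2 lie in 1 cluster and each had 1 region with a pileup of 21. Hairpins of a cluster share upstream sequence, so the same region can be counted more than once among the 8. Those without included MIR29A, MIR29B1, MIR29B2 and MIR29C, which encode the collagen-repressing miR-29, and MIR199A1 and MIR199B, while MIR199A2 had 1 region with a pileup of 19. MIR590, whose mature 5p form shares the miR-21 seed, had 1 region upstream.

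**Figure D5:**
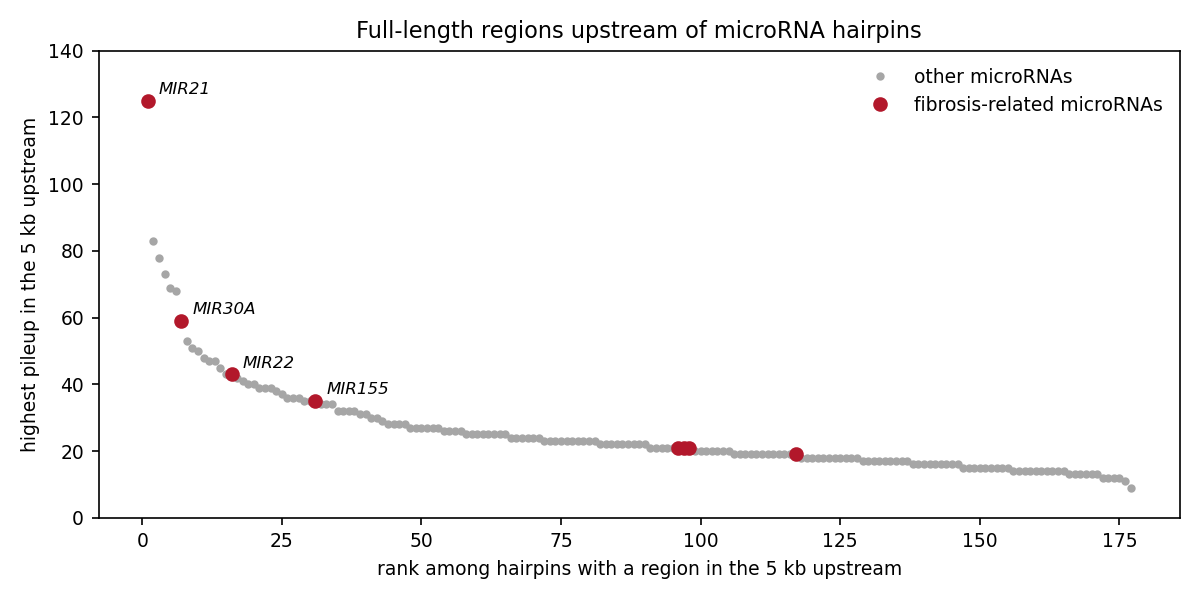
Highest pileup in the 5 kb upstream of the 177 hairpins with a full-length region there (y axis), ranked from the highest (x axis). Members of the fibrosis-related list are red. MIR21 stands at 125 and the next hairpin at 83.

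In the gene lists around VMP1 and miR-21, pileups outside the locus reached at most 74. Of 28 genes of autophagy and VMP1 partners, 20 (71.4%), VMP1 included, had at least 1 region in the gene body, beside 33.6% of protein-coding genes. Their median length was 40.1 kb against 27.5 kb for all protein-coding genes, and the part of gene length in these counts was not tested. After VMP1 the most were in ATG5 (9 regions, highest pileup 29) and ATG7 (8 regions, highest 40), which act in the conjugation steps of autophagy. ATG2B, RB1CC1, ATG101, WIPI2, ATG16L1 and ATG4B were among the 8 with none. TMEM41B, the scramblase related to VMP1 and named here for that relation after its values were seen, had 1 region with a pileup of 23.

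Of 16 genes known as miR-21 targets, 10 (62.5%) had a region, beside 33.6% of all protein-coding genes, with a median length of 31.2 kb against 27.5 kb. SMAD7, an inhibitor of TGF-beta signalling, had 3 regions (highest pileup 51), and RECK, TPM1, TGFBR2, TGFBI and RASA1 had 2 each. PDCD4, SPRY1, SPRY2, PPARA, BTG2 and PIK3R1 had none. These are regions on the genes' DNA and say nothing of repression of their transcripts. Of 11 AP-1 family genes, 6 (54.5%) had a region, beside the same 33.6%, with a median length of 8.53 kb. They included JUN at a pileup of 74 and ATF3 holding 2 regions, while FOS, FOSL1, JUNB, BATF3 and MAFK had none. In all 4 lists, 0 members had a dZF region.

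The dZF list had 0 regions in the locus. It had 1 region on chromosome 17, 32800 kb from the window, with a pileup of 35. The lists also differed in their lowest background, used here to scale for depth. The lowest background was 0.865 in the full-length list and 0.625 in the dZF list, a ratio of 1.38. With pileup and background divided by that ratio, 16 of the 17 regions kept a −log10 p above 7.62, the lowest in the dZF list, as did 89.5% of the full-length list. The exception was the region at 97.7 kb. Above the dZF list's median −log10 p of 22.0 there were 7 of the 17, and with the ratio doubled 8 were above 7.62. A list filtered by reproducibility has no fixed detection limit, and the part of depth in the absence of dZF regions was not tested. At this scale the intron 5 region would have a pileup of 93 and the microRNA-21 promoter one of 90, while pileups of the dZF list ran from 9 to 217 with a median of 24. Of its 54 regions, 11 had a −log10 p above the highest scaled value of the locus. The scaling takes the lowest backgrounds as a measure of depth and says nothing of the amount of transgene in each line.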

How the data were processed

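CUT&RUN libraries from doxycycline-treated LX-2 cells (3 full-length, 3 dZF) were grouped by the submitters' labels. The authors combined each group into 1 peak list filtered by reproducibility. The submitters' processing notes name Bowtie2 2.3.4.3, MACS2 2.2.5 and hg38, with no role or order. Per record, the deposited lists give a score scaled from the irreproducible discovery rate, a fold enrichment (ratio) at the summit, a −log10 p-value, a −log10 q-value (not used) and the summit offset. Library depth, control and read extension are not given in the sources used here.

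Pileup and background were computed from fold = (pileup + 1)/(background + 1) and the Poisson tail. A single whole number matched every record to within 6.9e-05 in −log10 p. Tested on 721 simulated records, the recovery returned the right pileup for 100%. Regions were assigned by 1 bp overlap to GENCODE 44 genes on hg38, with Python 3 libraries, and motifs were searched on both strands. Named genes were the protein-coding genes and microRNA hairpins of the window, plus list members with the most regions (ties included) or none. Others are named after their values were seen. TUBD1's only region lies past the window. Some genes of the microRNA-21 target list are not reported here. The locus, gene lists and comparison loci were chosen with earlier results of these data known, so no test was run. Alternatives changed the flanks, thresholds, motif and depth scaling.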

Additional observations from a re-analysis of the deposited data

How the results depend on the processing

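Of 32 alternative values for 8 results, 24 stayed within 1.5 times the count or within the limits of the value. The locus held 17 full-length regions, which became 5 and 4 when the upper 50% and 25% of records by fold were kept and 11 for the upper 25% by pileup. The 13 regions in VMP1 became 4 and 3 for the upper 50% and 25% by fold. The highest pileup of 129 became 93 when divided by the ratio of the lists' lowest backgrounds. The 16 regions above the lowest −log10 p of the dZF list became 8 with the depth ratio doubled and 7 against the median −log10 p of that list. The alternatives that moved a value keep fewer records, lower the pileups or, for the median −log10 p, raise the threshold from 7.62 to 22.0. The microRNA-21 count was 1 under each of its 3 alternatives. The alternatives for the dZF count of 0 could not change it, since the nearest dZF region is 32800 kb away. No paired analysis was possible because each group is 1 list combined over its libraries, with no value per replicate, so leaving out a replicate was not run either. Pileups and limits cover counting error in the pooled libraries only, and reproducibility between the lines behind the groups was not measured.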
